A study of Scyliorhinus canicula with 3 samples.

Results

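Glycinergic amacrine nuclei were drawn from 3 single-nucleus RNA libraries of the retina of the small-spotted catshark (*Scyliorhinus canicula*), each made from 1 untreated juvenile female. The animals were 11.0, 10.5 and 11.1 cm long and make up 1 condition, so the libraries served as replicates (n = 3). A nucleus was taken as glycinergic when 3 conditions were met: at least 4 unique molecular identifiers (UMIs) summed over *slc6a9* and *slc6a5*, a sum of at least 0.15% of its nuclear-genome UMIs, and at most 1 UMI over the cholinergic genes *chata*, *slc5a7* and *slc18a3a*. The members were thus chosen by the UMIs of these genes, whose levels are given as a description. The rule was met by 1380 of the 20632 nuclei within the quality limits. Library 1 held 462 of them among 6053 nuclei, library 2 held 248 among 4425, and library 3 held 670 among 10154. No barcode was glycinergic in more than 1 library, while among all nuclei libraries 1 and 2 shared 1 barcode, libraries 1 and 3 shared 16, and libraries 2 and 3 shared 15.

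Amacrine cells (ACs) are the inhibitory interneurons of the inner retina, and in jawed vertebrates they fall broadly into those that use glycine and those that use GABA. A glycinergic AC takes up glycine from outside through the membrane transporter GlyT1, encoded by *slc6a9*, and loads it into synaptic vesicles through the transporter encoded by *slc32a1*, which also carries GABA. In mammals most glycinergic ACs have narrow dendritic fields that run across several layers of the inner plexiform layer. The second transporter, GlyT2, encoded by *slc6a5*, is known mainly from glycinergic neurons of the spinal cord and brainstem. In the build used by the authors, sScyCan1.1, *slc6a9* lies on chromosome 4 from 41876314 to 42136178 and *slc6a5* on chromosome 9 from 190990695 to 191047704.

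Glycinergic nuclei made up 7.63% of the nuclei of library 1 (exact 95% binomial interval 6.98 to 8.33), 5.60% of library 2 (4.95 to 6.32) and 6.60% of library 3 (6.12 to 7.10), a mean of 6.61% ± 1.01 (SD, n = 3). These intervals cover counting error only. The share counts every nucleus that met the rule. Of these nuclei, 633, or 45.9%, fell on clustering into groups led by genes of other classes or of no clear class, as described further on. Glycinergic nuclei were deeper than the nuclei around them. Their median was 4298, 3587 and 3149 UMIs in libraries 1, 2 and 3, against 3321, 2085 and 1916 UMIs in all other nuclei. Since the sum that chose them must reach a fixed number of UMIs, shallow nuclei had less chance to enter. The median sum over both transporters was 17, 10.5 and 9 UMIs, and every glycinergic nucleus held at least 1 *slc6a9* UMI. The scatter of transporter share against depth shows the limit at 0.15% and, as curved lines of points, the nuclei with equal whole numbers of UMIs.

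**Figure D1:**
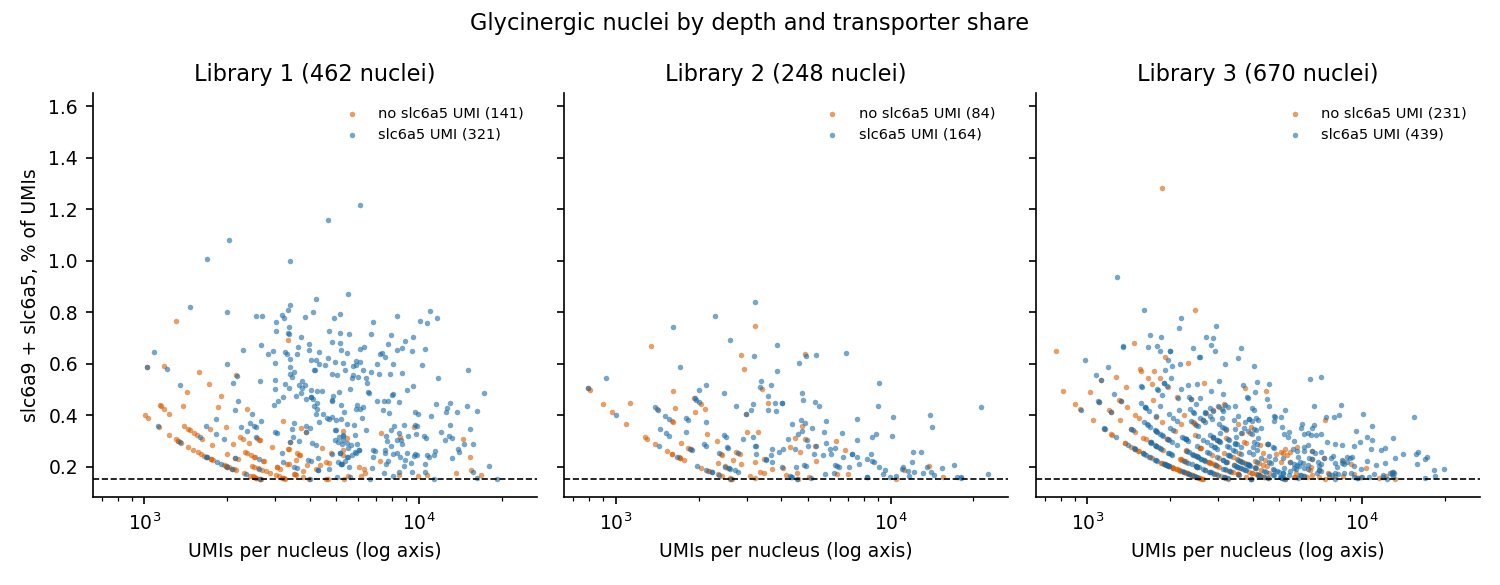
Each point is 1 glycinergic nucleus, with its UMIs on the x axis (log) and the *slc6a9* and *slc6a5* UMIs as a percent of its UMIs on the y axis, for libraries 1, 2 and 3. Blue points hold at least 1 *slc6a5* UMI (321, 164 and 439 nuclei), orange points hold none (141, 84 and 231), and the dashed line is the limit of 0.15%.

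The level of *slc6a9*, which chose the nuclei, was 3080.4, 2443 and 2294.5 CPM (UMIs of a gene scaled to a total of 1000000 nuclear UMIs) in libraries 1, 2 and 3. That of *slc6a5* was 770 CPM in library 1, 351 in library 2 and 377 in library 3. Near-empty droplets were the shallower barcodes among those with at least 200 features, and numbered 35150, 26816 and 32253. Their medians were 308, 285 and 456 UMIs, with 21.0%, 6.19% and 5.28% mitochondrial UMIs. Whether they held free RNA alone or also damaged nuclei was not tested. These droplets held 334, 226 and 329 CPM of *slc6a9* and 97.3, 38.1 and 48.6 CPM of *slc6a5*. Both transporters were therefore present at a low level in near-empty droplets, and those of library 1 had the most *slc6a5*. Just inside the limit on the sum, nuclei with 4 UMIs numbered 44, 33 and 77. Just outside it, 39, 24 and 110 nuclei had 3 UMIs and met the other conditions. A share between 0.10% and 0.15% left out 156, 94 and 299 nuclei. These held 1101, 1066 and 1401 CPM of *ptprt*, a marker described next. Glycinergic nuclei with a share of 0.15% to 0.20% held 1009, 1678 and 1555 CPM. For *ebf3a* the levels were 248, 275 and 360 CPM outside and 279, 716 and 466 CPM inside. The limit on the share thus did not part the class sharply. Nuclei left out by either limit count among all other nuclei below.

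The label was checked against markers that the rule did not use. *ptprt*, a receptor-type protein tyrosine phosphatase on chromosome 7 from 181204831 to 182786641, stood at 3878, 2517 and 2215 CPM in glycinergic nuclei and at 285, 369 and 481 CPM in all other nuclei. *zfpm2a*, which encodes a cofactor of GATA transcription factors and lies on chromosome 10 from 157185484 to 158078003, stood at 1814, 1118 and 975 CPM against 132, 171 and 177 CPM. Both markers were chosen with earlier results of these data known, so their values are a description here and wherever they enter a count or list. The 5 general AC genes, *pax6*, *slc32a1*, *tfap2a*, *tfap2b-l* and *meis2a*, did not all set these nuclei apart. They summed to 1290.1, 821 and 1069 CPM, against 1021, 717 and 813 CPM in all other nuclei, 984, 623 and 574 CPM in near-empty droplets and 2880, 2233 and 1869 CPM in the GABAergic AC nuclei described further on. *pax6*, a master regulator of eye development, stood at 641, 332 and 423 CPM against 292, 188 and 232 CPM in all other nuclei, and *slc32a1* at 170.2, 107 and 148 CPM against 66.9, 55.7 and 82 CPM. The homeobox gene *meis2a* was at lower levels than in all other nuclei, 228, 207 and 243 CPM against 385, 292 and 291 CPM. The AP-2 gene *tfap2b-l*, at 105, 86.4 and 139 CPM against 132, 92.3 and 114 CPM, and *tfap2a*, at 145, 88.9 and 115 CPM against 144, 89.2 and 92.6 CPM, overlapped between the groups. The 4 cholinergic marker genes summed to 35.3 to 53.5 CPM, against 199 to 272 CPM in all other nuclei, and 3 of these genes were limited by the rule.

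Markers of other classes were present as well. The 6 rod genes summed to 4384 to 6443 CPM in glycinergic nuclei, 8338 to 9938 CPM in all other nuclei and 15611 to 43953 CPM in near-empty droplets. The 7 bipolar cell (BC) genes summed to 1009.7 to 1250.4 CPM, against 1509 to 1619 CPM in all other nuclei, and the 5 Müller glia (MG) genes to 98 to 306 CPM, against 179 to 881 CPM. None of these genes was at 0 in glycinergic nuclei of any library. At least 2 UMIs over *gad1* and *gad2*, the enzymes that make GABA, were held by 27.9%, 20.2% and 31.6% of glycinergic nuclei. The part of free RNA and of droplets with 2 nuclei in these levels was not tested.

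How glycinergic nuclei differ from the other large AC class was asked first. GABAergic AC nuclei were those with at least 4 UMIs and 0.15% over *gad1* and *gad2*, at most 1 UMI over both glycine transporters and at most 1 cholinergic UMI, which left 269, 116 and 473 nuclei. Their depth was close to that of glycinergic nuclei, with medians of 3845, 3285 and 2864 UMIs. Glycinergic nuclei had high levels of the transcription factors *ebf3a* and *ebf1a*, the glycine receptor subunit *glra1*, the calcium channel subunit *cacna2d3a* and the metabotropic glutamate receptor *grm3*. GABAergic nuclei had high levels of *penkb*, a precursor of enkephalin peptides, the GABA transporter *slc6a1b* and the transcription factors *meis2a* and *tfap2a*. Summed per library and tested with edgeR's quasi-likelihood test, with library as a block, 278 genes were higher and 295 lower among 12909 genes tested, at a Benjamini-Hochberg adjusted p under 0.05 and a log2 fold change of at least 1. These are 4.44% of the genes tested, 2.15% higher and 2.29% lower. The counts of gene lists given below for this comparison are to be read beside these shares, and most lists are short. All lists were chosen with earlier results of these data known, so their counts are a description in every comparison. The transporters and the *gad* genes that set the groups were left out of the test. All 1380 nuclei that met the rule entered it, also the 633 in groups led by genes of other classes or of no clear class.

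**Figure D2:**
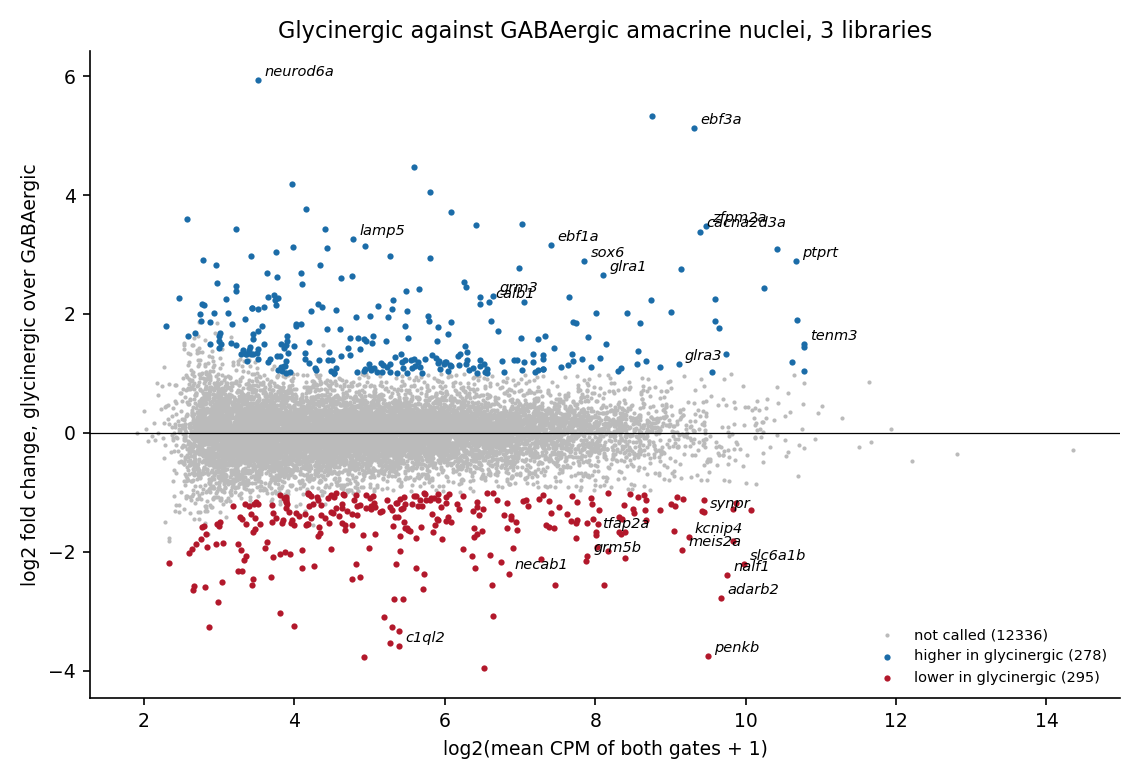
Each point is 1 of 12909 genes, with the log2 of its mean CPM over both gates on the x axis and the fitted log2 fold change of glycinergic over GABAergic AC nuclei on the y axis. Blue points are the 278 genes called higher and red points the 295 called lower, and among the labelled genes *ebf3a*, at 5.13, and *penkb*, at -3.75, lie far from the rest at high levels.

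*ebf3a*, an early B-cell factor that acts in the differentiation of neurons, stood at 2051, 977 and 699 CPM in glycinergic nuclei of libraries 1, 2 and 3. In GABAergic nuclei it stood at 31.6, 17 and 41.7 CPM. The lowest glycinergic library lay far above the highest GABAergic one, and the log2 fold change was 5.13 ± 0.28 (SE; adjusted p = 1.68e-07, edgeR). The related *ebf1a* stood at 424, 192 and 303 CPM against 30.8, 12.8 and 53.8 CPM, a log2 fold change of 3.15 ± 0.22 (adjusted p = 7.22e-07, edgeR). *zfpm2a* and *ptprt* differed by 3.48 and 2.89 on the log2 scale, and their choice as markers with results known makes these values a description. *sox6*, which encodes an SRY-box transcription factor, stood at 567, 404 and 259 CPM against 47.5, 42.5 and 62.2 CPM.

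Of the other AC transcription factors, *prdm13*, which in the mouse is needed for many ACs, had a log2 fold change of 2.20, with 313, 128 and 208 CPM against 61.6, 38.3 and 45.9 CPM. *nfixb*, a nuclear factor I gene, stood at 75.9, 146 and 100 CPM against 13.3, 21.3 and 43.5 CPM. *neurod6a*, whose orthologue marks a small AC type of the mouse that is neither clearly glycinergic nor GABAergic, was low in both classes, at 31.2, 11.5 and 19.5 CPM against 0, 0 and 0.604 CPM, and it passed the low-count filter only through the glycinergic nuclei. Its relative *neurod2* stood at 20.5, 18.1 and 28.9 CPM against 0.833, 2.13 and 4.83 CPM, and it too passed the filter only through the glycinergic nuclei. The AP-2 genes *tfap2a* and *tfap2b-l*, by contrast, were lower, at 145, 88.9 and 115 CPM against 561, 361 and 263 CPM for the former and with a log2 fold change of -1.99 for the latter. *meis2a*, a homeobox gene of GABAergic ACs in other vertebrates, stood at 228, 207 and 243 CPM against 1174, 808 and 759 CPM.

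Over the whole list of AC transcription factors, 24 of 28 features were tested, of which 9 were higher, 6 were lower and 9 did not pass. The median log2 fold change of the list was 0.40, beside 0.01 over all genes tested. Among the 9 that were higher were *ebf3a*, *ebf1a*, *zfpm2a*, *prdm13*, *nfixb*, *neurod1*, *neurod2* and *neurod6a*. Of these, *zfpm2a* was chosen with results known. *neurod6a* and *neurod2* had to differ once they passed the filter, so neither they nor *zfpm2a* support the count. The list too was chosen with earlier results of these data known, so its count is a description. The 6 that were lower were *tfap2a*, *tfap2b-l*, *meis2a*, *bhlhe22*, *nr4a2a* and *mafa*. Without library 1, *neurod1* kept its direction at 0.88 but no longer passed, and without library 3 *bhlhe22* no longer passed at -0.98. *neurod1* is also 1 of the 2 photoreceptor precursor markers, with *nr2e3*. Together these 2 summed to 392, 279 and 208 CPM in glycinergic nuclei and 368, 327 and 241 CPM in all other nuclei.

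Receptors for glycine and GABA differed by subunit. Ionotropic receptors of both transmitters are chloride channels built from several subunits, and for glycine the alpha subunits bind the transmitter while the beta subunit anchors the receptor at the synapse. The subunit *glra1* (chromosome 4, 220379307 to 220534296) stood at 631, 359 and 423 CPM in glycinergic nuclei against 92.4, 74.4 and 65.2 CPM in GABAergic nuclei. It had a log2 fold change of 2.66 ± 0.13 (adjusted p = 9.56e-08, edgeR). *glra3* (chromosome 8, 179261294 to 179552424) stood at 899, 688 and 683 CPM against 304, 378 and 351 CPM, a log2 fold change of 1.16 ± 0.14 (adjusted p = 8.37e-05, edgeR). *glra2* went the other way, with 171, 141 and 144 CPM against 326, 304 and 252 CPM. Its log2 fold change of -0.91 lay under the size required. The beta subunit *glrbb* had 186, 168 and 199 CPM against 191, 229.5 and 228 CPM, an adjusted p of 0.376 (edgeR). In all, 2 of the 4 glycine receptor genes were higher and none lower, with a median of 0.49.

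Among the 7 GABA receptor genes, 3 were higher and none lower, with a median log2 fold change of 0.62. The beta subunit *gabrb2a* stood at 748, 587.5 and 556 CPM against 305, 236 and 344 CPM. The alpha subunit *gabra5* was lower in level, with 52.5, 39.5 and 44.8 CPM against 11.7, 8.5 and 23 CPM. The groups did not overlap for either gene. The annotated span of *gabra5* overlaps another gene, so part of its reads may belong there. Without library 1, *glra3* and *gabrb2a* fell to log2 fold changes of 0.91 and 0.95, under the size required. With the limit on the share at 0.10% they stood at 0.88 and 0.89.

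**Figure D3:**
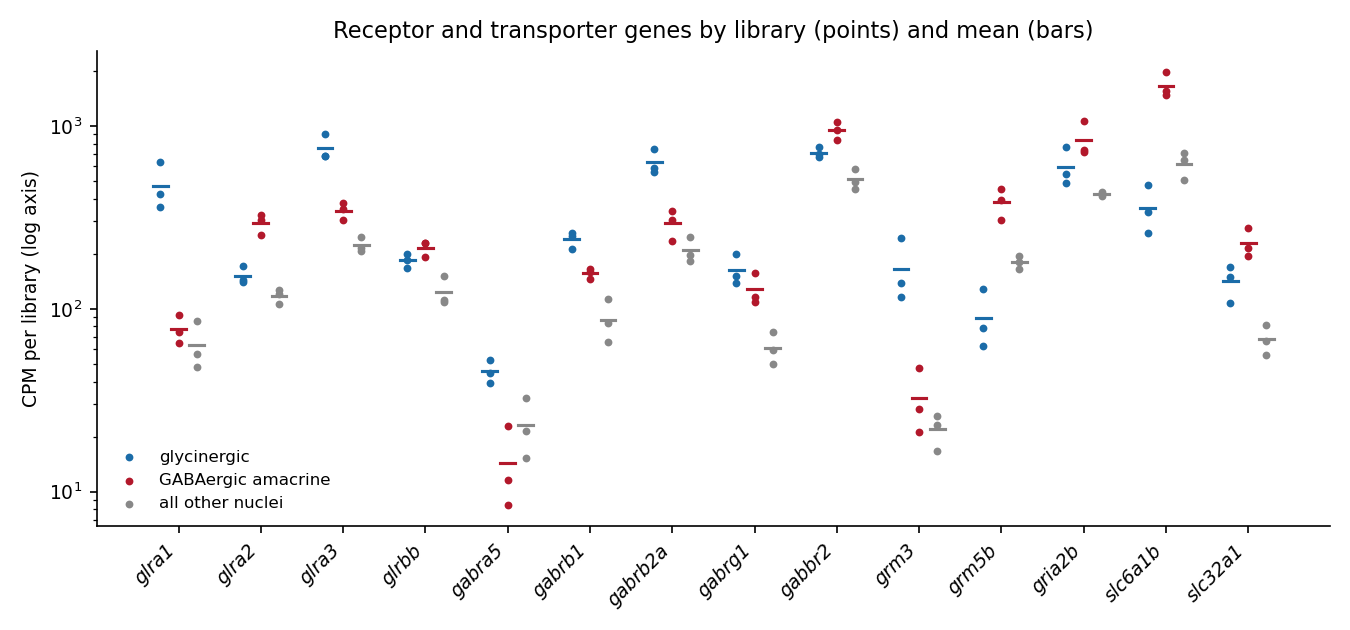
CPM (log axis) of 14 receptor and transporter genes in the 3 libraries (points) with their mean (bars), in glycinergic nuclei (blue), GABAergic AC nuclei (red) and all other nuclei (grey). The blue points of *glra1* (359 to 631 CPM) and *grm3* (117 to 243 CPM) lie above all red and grey points, and those of *slc6a1b* (259 to 473 CPM) lie below all red points.

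Among genes of transmitter handling, *slc6a1b*, a GABA transporter of the plasma membrane, stood at 259, 340 and 473 CPM against 1542, 1959 and 1467 CPM. Its log2 fold change was -2.21 ± 0.16 (adjusted p = 1.28e-06, edgeR). It was the gene that fell among the 4 tested of the list for GABA use. The vesicular transporter *slc32a1* stood at 170.2, 107 and 148 CPM against 214, 276 and 193 CPM, a difference of -0.60 that did not reach the size required. None of the 3 tested genes of glycine use passed, among them *gldc*, a subunit of the glycine cleavage system, at 11.1, 30.4 and 26.4 CPM against 14.2, 19.1 and 22.4 CPM. None of the 11 genes of vesicle release passed either, and their median log2 fold change was 0.12.

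Of 10 glutamate receptor genes tested, 1 was higher and 1 lower. *grm3*, a metabotropic receptor that inhibits adenylate cyclase, stood at 243, 137 and 117 CPM against 47.5, 21.3 and 28.4 CPM. *grm5b*, a receptor that acts through phospholipase C, stood at 62.3, 78.2 and 128 CPM against 452, 393 and 304.5 CPM. The ionotropic subunit *gria2b*, with 763, 486 and 544 CPM against 1059, 742 and 717 CPM, did not reach the size required.

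The list of markers of mammalian glycinergic types gave 2 higher and 1 lower gene of 10 tested. *calb1*, which encodes the calcium buffer calbindin, stood at 194, 106 and 167 CPM against 46.6, 25.5 and 33.2 CPM. *lamp5*, a membrane protein of endosomes in neurons, stood at 49.6, 39.5 and 55.6 CPM against 2.50, 4.25 and 7.85 CPM. Its GABAergic levels alone would not have passed the low-count filter, so it does not support the count. *synpr*, the vesicle protein synaptoporin, was lower, at 357, 369.5 and 443 CPM against 924, 1171 and 918 CPM. *slc17a8*, the vesicular transporter of ACs that use glycine and glutamate in the mouse, stood at 11.1, 2.47 and 11.2 CPM against 2.50, 0 and 6.04 CPM and did not pass (adjusted p = 0.0683, edgeR).

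Of the 9 genes of neuropeptides and amines, 1 was higher (*nts*, neurotensin) and 2 were lower (*slc18a2*, the vesicular monoamine transporter, and *penkb*). *nts* was low in glycinergic nuclei, at 15.4, 5.34 and 6.54 CPM in those with *slc6a5* UMIs. In those without, it stood at 36.8, 3.59 and 12.8 CPM, so its level was highest in library 1. Without library 2, *slc18a2* did not pass, at -1.11. At 2.87, 4.94 and 11.6 CPM against 6.66, 36.1 and 24.8 CPM, *slc18a2* passed the low-count filter only through the GABAergic nuclei. It therefore does not support the count. *penkb* stood at 61.9, 113 and 127 CPM in glycinergic against 1052, 1451 and 1516 CPM in GABAergic nuclei, a log2 fold change of -3.75 ± 0.13 (adjusted p = 3.07e-09, edgeR). *kcnip4*, a partner of Kv4 potassium channels, stood at 335, 190.1 and 303 CPM against 1051, 829 and 920.1 CPM. *cacna2d3a*, an auxiliary subunit of voltage-gated calcium channels, was higher in glycinergic nuclei, at 1553, 1159 and 981 CPM against 98.2, 80.8 and 166 CPM. The annotated spans of *cacna2d3a*, *tenm3*, *tfap2a* and *mafa* each overlap other genes, so part of their reads may belong to those. The same holds for *nalf1*, *kcnip4*, *bhlhe22*, *ptprk* and *cdh23*. It also holds for *gabrb1*, *megf11*, *kcnt2*, *foxp2*, *cacna1ba* and *flt1*, which are named further on. *kcnj3a*, a subunit of the G protein-gated potassium channels, stood at 324, 324 and 308 CPM against 142, 95.6 and 159 CPM. Of the 26 potassium channel genes tested, 2 were higher and 3 lower, and of the 16 calcium, sodium and HCN channel genes, 1 was higher and 3 lower. Over all genes tested, 2.15% were higher and 2.29% lower. *kcng3*, among the higher, passed the low-count filter only through the glycinergic nuclei, and *kcnc4*, among the lower, only through the GABAergic ones, so neither supports the count. Of 32 adhesion genes, 4 were higher, with *ptprt*, *tenm3* (2833, 2583 and 2307 CPM against 897, 848 and 1033 CPM), *cdh7a* and *cdhr1a*. The 2 that were lower were *ptprk* and *cdh23*, and *ptprt* is again a marker chosen with results known. *cdhr1a* was low, at 11.3, 33.1 and 26.2 CPM in glycinergic nuclei with *slc6a5* UMIs. In those without it stood at 49, 61.1 and 40.9 CPM, the same direction as the rod genes described further on.

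Among genes with a name, a mean of 50 CPM or more and the same direction in all 3 libraries, the 10 most raised in glycinergic nuclei were *ebf3a*, *zfpm2a*, *cacna2d3a*, *ebf1a*, *ppp1r1c*, *ptprt*, *sox6*, *dlgap3*, *glra1* and *nhlh2*. *dlgap3*, a scaffold protein of the postsynaptic density, stood at 1271, 886 and 795 CPM against 139, 113 and 179 CPM. The 10 most lowered were *spx*, *penkb*, *c1ql2*, *npb*, *adarb2*, *nalf1*, *necab1*, *scube2*, *scube1* and *slc6a1b*. Among them *spx*, *c1ql2* and *npb* passed the low-count filter only through the GABAergic nuclei, so their places are a description only. *npb* stood at 9.84, 3.29 and 5.06 CPM against 171, 31.9 and 8.46 CPM, most of it in library 1. *spx*, a neuropeptide gene, owed its place to 512 CPM in GABAergic nuclei of library 2, against 5 and 13.3 CPM in libraries 1 and 3, and without library 2 its log2 fold change of -1.001 did not pass. *adarb2*, an RNA-binding relative of RNA-editing enzymes, stood at 87.3, 160.5 and 492 CPM against 1516, 1256 and 1385 CPM. *nalf1*, a subunit of the sodium leak channel, stood at 205, 258 and 362 CPM against 1331, 1751 and 1280.1 CPM.

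Against all other nuclei of the same library, 380 genes were higher and 385 lower among 18987 tested, 4.03% in all, 2% higher and 2.03% lower. *glra1* had a log2 fold change of 2.93 ± 0.25 (adjusted p = 0.000372, edgeR), from 48, 56.9 and 85.7 CPM in the other nuclei. *grm3* had one of 2.89 ± 0.22 (adjusted p = 0.000336, edgeR), from 23.2, 16.8 and 26 CPM. The 10 genes with the largest change among those higher were *ebf3a*, *zfpm2a*, *ptprt*, *glra1*, *grm3*, *prdm13*, *pdzrn4*, *cacna2d3a*, *nhlh2* and *cdh7a*, of which *pdzrn4*, *grm3*, *prdm13* and *cdh7a* had not led the comparison with GABAergic nuclei. *pdzrn4*, which encodes a ring finger protein with PDZ domains, stood at 1277, 695 and 511 CPM against 165, 112 and 115 CPM. Of the 7 GABA receptor genes, 5 were higher, among them *gabrb1*, *gabrb2a*, *gabrg1* and *gabra5*, and their list had a median of 1.44, beside -0.06 over all genes tested. Without library 1, *gabra5* lay at 0.62 and did not pass, and without library 2 it did not pass at 1.14. The number of genes called was 540 without library 1, 484 without library 2 and 1050 without library 3.

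*slc32a1* was higher than in the other nuclei by 1.09 ± 0.12 on the log2 scale (adjusted p = 0.00111, edgeR), from 66.9, 55.7 and 82 CPM. It did not pass without library 1, at 0.90. Potassium channel genes were higher in 5 and lower in 3 of 35 tested, beside 2% higher and 2.03% lower over all genes tested. Among the former were *kcnh3* (407, 272 and 300.5 CPM against 127, 148 and 175 CPM) and *kcnt2* (442.5, 353 and 350 CPM against 154, 182 and 193 CPM). Among the 10 genes with the largest fall were *megf11*, a gene of starburst ACs and horizontal cells in the mouse, and *rbpms2-l*, an RNA-binding protein gene of retinal ganglion cells. *megf11* stood at 17.6, 41.1 and 35.4 CPM against 125, 136 and 167 CPM. *epcam*, an epithelial adhesion gene, had 88.2 against 316 CPM in library 1 and under 1 CPM in both groups of libraries 2 and 3.

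Nuclei with and without *slc6a5* UMIs were compared next. At least 1 *slc6a5* UMI was found in 321, 164 and 439 glycinergic nuclei, 69.5% in library 1 (exact 95% interval 65.1 to 73.7), 66.1% in library 2 (59.9 to 72.0) and 65.5% in library 3 (61.8 to 69.1). *slc6a9*, which had a UMI in every member, also had one in 59.9%, 46.8% and 51.1% of rod nuclei. Whether rods transcribe either gene was not tested. For *slc6a5*, 4.78%, 2.22% and 4.54% of rod nuclei held 1, at median depths of 2797, 1863.5 and 1657.5 UMIs. With every nucleus thinned to 1000 UMIs, which left out 0, 7 and 6 glycinergic nuclei, the share was 43.3%, 29% and 32.2%, against 2.06%, 0.656% and 1.59% of rod nuclei. The share therefore depends on depth. Since *slc6a5* UMIs count towards the sum that chose the glycinergic nuclei and not towards the choice of rods, a higher share than in rods is built into the rule. Of the positive nuclei, 29, 58 and 171 held a single *slc6a5* UMI, and the highest counts were 32, 9 and 12 UMIs.

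Positive nuclei were the deeper ones, with medians of 5213, 4439 and 3424 UMIs against 2565, 2607.5 and 2668 UMIs in negative nuclei, so a missing UMI does not show that a nucleus lacks the transcript. The level of *slc6a9* was 3247, 2378 and 2250.3 CPM in positive and 2415, 2662 and 2407 CPM in negative nuclei. Negative nuclei had to reach the limits on *slc6a9* alone, so these levels are shaped by the rule. In edgeR's quasi-likelihood test with library as a block, 0 genes were higher in positive nuclei and 2 were lower among 10893 tested, 0.0184% in all, at an adjusted p under 0.05. At an unadjusted p under 0.05, 565 were higher and 623 lower, and DESeq2 called 16 higher and 0 lower.

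Both lower genes carry a number in place of a name, LOC119964553 and LOC119972190, and were singled out after their values were seen. LOC119964553 had 910 UMIs in glycinergic nuclei of library 1, of which 95.7% lay in 5 nuclei, and none in libraries 2 and 3. LOC119972190 had 710 UMIs in library 1, of which 93.9% lay in 5 nuclei, and none in libraries 2 and 3. The adjusted p of each was 0.0365 (edgeR), with log2 fold changes of -6.82 and -6.50, and both calls rest on a few nuclei of library 1. Without library 1 neither was called and 157 other genes were, 97 higher and 60 lower, and without library 3 no gene was called.

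Genes that led the glycinergic profile did not all go the same way in each library, and none of those named next passed the test. *pdzrn4*, at 1554, 677 and 539.7 CPM in positive and 176, 758 and 438 CPM in negative nuclei, and *grm3*, at 296, 132 and 119 CPM against 34.7, 155 and 109.9 CPM, were lower in positive nuclei of library 2. *nhlh2* and *prox1a* were also lower there, at 86.5 against 93.4 CPM and 263 against 269 CPM. Other genes were higher in positive nuclei of every library. *ptprt* stood at 4704, 2693 and 2415 CPM in positive nuclei of libraries 1, 2 and 3 and at 590.1, 1926 and 1708 CPM in negative ones. *zfpm2a* stood at 2209, 1219.9 and 1088 CPM against 239, 776 and 686 CPM, and *ebf3a* at 2534, 1004 and 773 CPM against 127, 884 and 513 CPM. For all 3 genes the negative nuclei of library 1 stood apart from those of libraries 2 and 3, and none of the 3 passed the test. Without library 1 the log2 fold changes were 0.51, 0.68 and 0.42, of which those of *ptprt* and *zfpm2a*, markers chosen with results known, lay past the threshold. *glra3* was more even, at 1085, 774 and 805 CPM against 159, 399 and 372 CPM. Its log2 fold change was 1.63 ± 0.37, with an adjusted p of 0.365 (edgeR) and 3 of 3 libraries higher. DESeq2 called it, and so did edgeR without library 1, where it was 1.07. The glycine receptor list had a median of 0.96 and the GABA receptor list one of 0.72, beside -0.02 over all genes, with 0 of 4 and 0 of 7 genes passing.

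**Figure D4:**
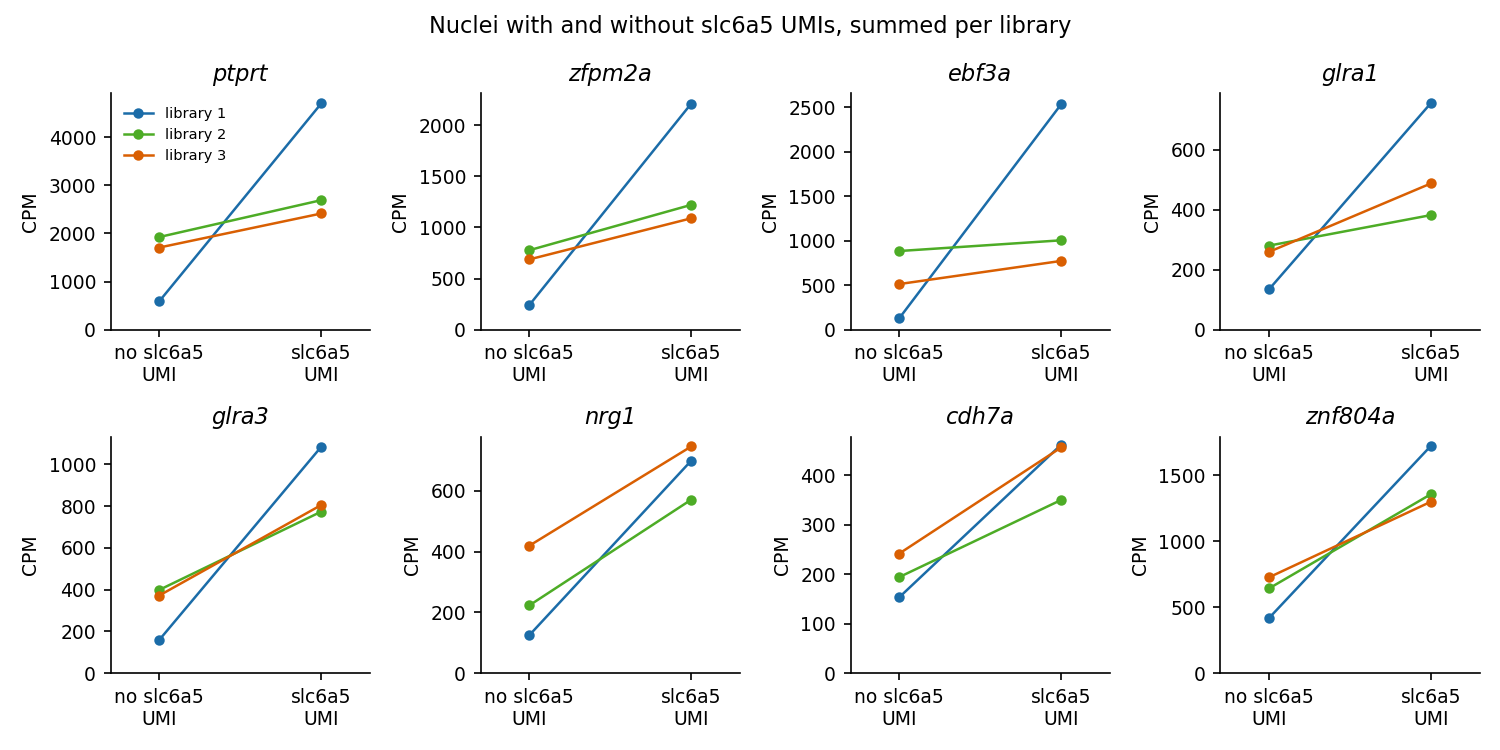
CPM (linear axes from 0) of 8 genes in glycinergic nuclei without and with *slc6a5* UMIs, summed per library, with 1 line for each library. All lines of these 8 genes, chosen after their values were seen, rise, and for *ptprt*, *zfpm2a* and *ebf3a* the line of library 1 is the steepest, from 590.1 to 4704 CPM for *ptprt*.

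The 6 rod genes were lower in positive nuclei of every library, but none of them passed the test (adjusted p of 0.365 to 0.468, edgeR). *rho*, the rod visual pigment, stood at 2929, 4411 and 3394 CPM in positive and 5950, 6543 and 4014 CPM in negative nuclei, and the 6 rod genes summed to 3585, 5798 and 4644 CPM against 7565, 8616 and 5695 CPM. The levels in near-empty droplets were 43953, 20093 and 15611 CPM. *hopx*, which encodes a homeodomain-only protein, had 486 CPM in negative nuclei of library 1, against 3.59 and 3.83 CPM in libraries 2 and 3. In library 1, 89.0% of its UMIs lay in 5 nuclei, and *hopx* did not pass the test (adjusted p = 0.217, edgeR). The part of free RNA in the split was not tested.

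Clustering of the 1380 nuclei, without the genes of the rule, gave 14 groups, which are a description and were not tested. Nuclei of all 3 libraries entered every group. In 9 groups, with 747 nuclei or 54.1% of all, genes outside the other classes led, with the exception of group 7. Group 7 held 3 of 7 BC markers at raised levels (a log2 ratio of at least 1 to the other glycinergic nuclei), *vsx1* among its leading genes, with sums of 2279 CPM in it and 1058 CPM in the other glycinergic nuclei, while 1 of 5 general AC markers and 0 of 4 glycinergic markers were raised. Groups 8, 9, 12 and 13 also had 0 of 4 glycinergic markers raised, and groups 2, 5, 6, 12 and 13 had 0 of 5 general AC markers raised. Some markers of other classes were raised in groups 2, 5, 6, 12 and 14 too, such as 2 of 4 horizontal cell markers in group 14. Group 7 was kept with the 9 groups, and the values of these groups include it. In 5 groups, with 633 nuclei or 45.9%, genes of other classes led or no class was clear. The split of the groups was made after their leading genes were seen. In the 9 groups 95.2%, 79.7% and 72.6% of nuclei held *slc6a5* UMIs, and in the 5 groups 33.3%, 49.1% and 58.3%. Of all *slc6a5*-negative nuclei, 90.8% of library 1, 66.7% of library 2 and 59.7% of library 3 lay in the 5 groups. Within the 9 groups, *ptprt* stood at 5296, 3348 and 3257 CPM in positive and 5369.6, 4338 and 2507 CPM in negative nuclei, with no common direction. *glra3* was higher in positive nuclei of every library, at 1197, 988 and 1078 CPM against 372, 684 and 464 CPM. The mix of groups differed between positive and negative nuclei. Group 2, high in *glra3*, held *slc6a5* UMIs in 86.8% of its nuclei, and group 5, low in *glra3*, in 67.0%. The part of this mix in the difference was not tested.

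**Figure D5:**
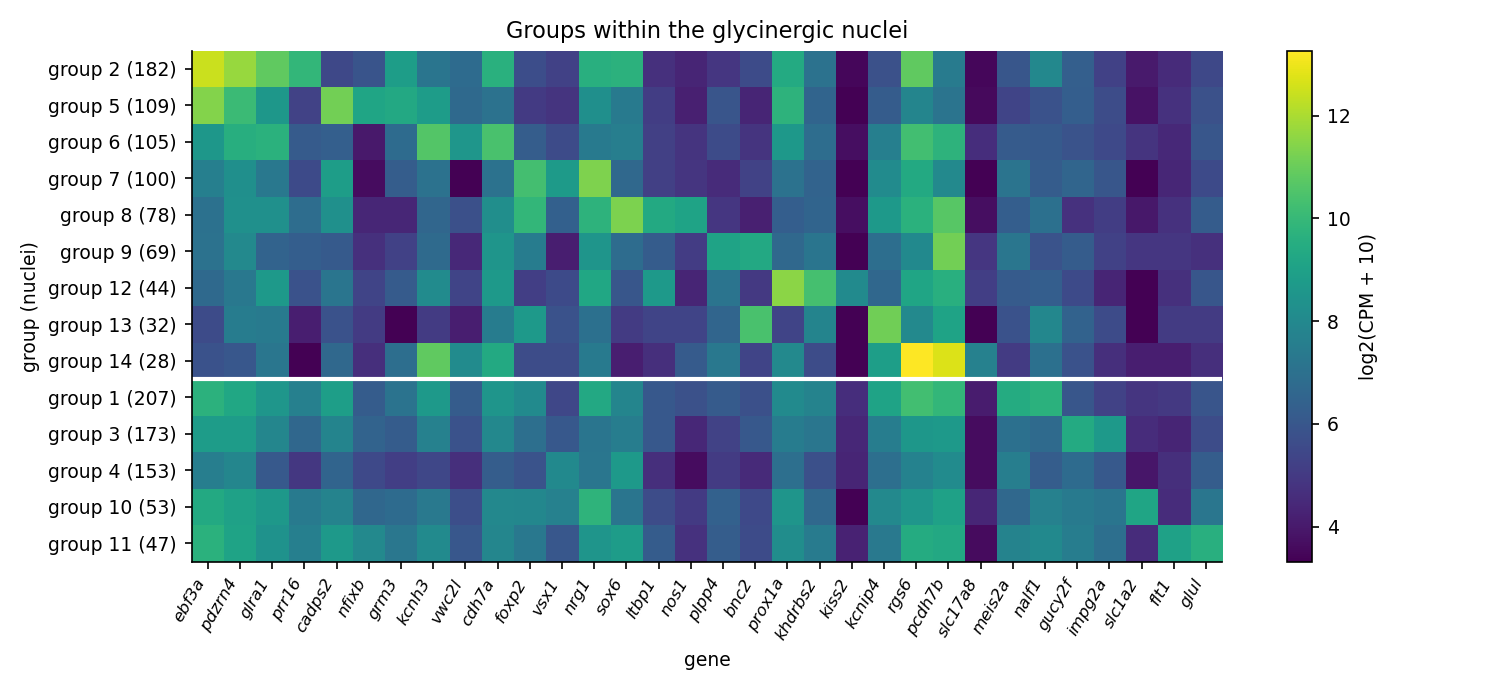
Log2 of CPM plus 10 for 32 genes (columns) in the 14 groups (rows, with the number of nuclei). The white line parts the 9 groups described first (above), of which group 7 held 3 of 7 raised BC markers, from the 5 groups led by genes of other classes or of no clear class (below), and the brightest fields are *rgs6* and *pcdh7b* in group 14 and *ebf3a* in group 2.

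Group 2, with 182 nuclei, held the highest *ebf3a* level, 7531, 4056 and 3150.2 CPM in libraries 1, 2 and 3, against 912, 661 and 487 CPM in the other glycinergic nuclei. It was also led by *prr16*, *ppp1r1c*, *pdzrn4* and *glra1*, the last at 2021, 1449 and 1670.2 CPM against 343, 247 and 315 CPM. *calb1* (576 CPM) and *tfap2c* (602 CPM), an AP-2 gene, had their highest group levels here. The level of *slc6a5* was 1032 CPM over the group, and 98.6%, 71.0% and 82.3% of its nuclei held a UMI.

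Group 5, with 109 nuclei, shared *ebf3a* (2715 CPM) and *calb1* (486 CPM) with group 2 but differed from it in *glra3*, at 142 against 2224 CPM. Its leading genes included *cadps2*, a priming factor of dense-core vesicles, at 2407, 2433 and 1756 CPM against 205, 232 and 302 CPM, and *nfixb*, at 509, 663 and 554 CPM against 30.8, 83 and 78.3 CPM. *mpz* and *dchs2* led it too, but 81.2% and 60.2% of their UMIs in library 3 lay in 5 nuclei. Group 5 had the highest *slc6a9* level of all groups, 4327 CPM, and a lower *slc6a5* level of 503 CPM.

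Group 6, with 105 nuclei, was led by *npffr2a*, a receptor for RFamide peptides, *kcnh3*, a potassium channel, *vwc2l*, *tgfb2* and *cdh7a*, a cadherin at 1425, 1487 and 1215 CPM against 324, 254 and 362 CPM. *ptprt* stood at 7262 CPM in it and *slc6a5* at 1011 CPM. Group 7, with 100 nuclei, was led by *gulp1b*, *foxp2*, a forkhead transcription factor, *vsx1*, a homeobox gene otherwise of BCs, *zbtb18* and *nrg1*, the last at 2687, 2223 and 2594 CPM against 440.3, 373 and 551 CPM. *ptprt* was low in group 7, at 402 CPM, and *zfpm2a* high, at 1998 CPM. Of its nuclei, 89% held *slc6a5* UMIs and 7% held at least 2 *gad* UMIs, the lowest share of the 14 groups.

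Group 8, with 78 nuclei, was led by *nos1*, the neuronal nitric oxide synthase, at 593, 349 and 524 CPM against 10.7, 30.6 and 28.7 CPM, with *ltbp1*, *sox6*, *syt9b* and *thsd7ba*. *nos1* UMIs were found in 38.5% of its nuclei. *sox6* stood at 2883, 2096 and 1984 CPM against 359, 298 and 202 CPM. At least 2 *gad* UMIs were held by 47.1% of its nuclei in library 1, 6.25% in library 2 and 28.6% in library 3. Group 9, with 69 nuclei, was led by *dse*, *plpp4*, *bnc2* and *hao2*, and held *chrna8*, a nicotinic acetylcholine receptor subunit, at 1045 CPM, the highest level of the 14 groups.

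The smaller groups had leading genes as well, which in all groups come from the same counts that formed the groups. Group 12, with 44 nuclei, was led by *kiss2*, a kisspeptin gene found in 54.5% of its nuclei and 1.95% of the others, and by *prox1a*, a homeobox gene, at 4311, 2189 and 1747 CPM against 414, 247 and 268 CPM. Group 13, with 32 nuclei, was led by *bnc2*, *kcnip4*, *gap43* and *npy*, which encodes neuropeptide Y. *bnc2* stood at 1525, 1212 and 1119 CPM in it, against 59, 71.1 and 49.9 CPM. Group 14, with 28 nuclei, was led by *slc17a8*, *rgs6*, *plcl1*, *kif26ab* and *pcdh7b*. *slc17a8* UMIs were found in 32.1% of its nuclei and 1.63% of the others, and *rgs6*, a regulator of G protein signalling, stood at 10568, 4626 and 7318 CPM. Libraries 1, 2 and 3 gave 18, 1 and 9 nuclei to group 14 and 16, 3 and 25 to group 12, so values of single libraries rest on few nuclei.

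The general markers of the class were unevenly spread over the 9 groups. *ptprt* ranged from 147 CPM in group 13 to 8355 CPM in group 14, and *zfpm2a* from 335 CPM in group 14 to 3987 CPM in group 2. *cacna2d3a* was more even, between 649 CPM in group 2 and 3329.8 CPM in group 6. *slc32a1* lay between 124 CPM in group 9 and 214 CPM in group 2. *slc6a5* was lowest in group 9, at 463 CPM, and highest in group 2. *neurod6a* was concentrated in groups 7, 9 and 13, at 126, 116 and 108 CPM, and lay at 26.4 CPM or less in the other 6.

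The 5 remaining groups met the rule but were led by other genes. Group 1, with 207 nuclei and a median of 5804 UMIs, was led by *meis2a*, *nalf1*, *cacna1ba* and *cdh23*, and 76.8% of its nuclei held at least 2 *gad* UMIs. All 3 GABAergic AC markers had a log2 ratio of at least 1 to the other glycinergic nuclei, with sums of 1713 and 372 CPM. Group 3, with 173 nuclei, was led by the photoreceptor genes *gucy2f*, *impg2a* and *fscn2b*, and the 6 rod genes summed to 11288 CPM against 4137 CPM. Group 10, with 53 nuclei, held 6 of 7 BC markers at raised levels, *slc1a2* and *cplx4a* among its leading genes, and 45 of its nuclei came from library 3. Group 11, with 47 nuclei and a median of 8541 UMIs, held all 5 MG markers at raised levels, with *flt1* at 508 CPM and *glul*, glutamine synthetase, at 773 CPM, against 15.7 and 50.6 CPM.

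Groups 1, 10 and 11 had the highest median depths of the 14, 5804, 6554 and 8541 UMIs, and their transporter share lay close above the limit, with medians of 0.214%, 0.2004% and 0.214% against 0.410% in group 2. Groups 3, 12 and 14, with lower median depths of 3606, 4047.5 and 3779 UMIs, had similar median shares of 0.208%, 0.238% and 0.236%. Whether droplets of groups 1, 10 and 11 held 2 nuclei was not tested. Group 4, with 153 nuclei, stayed without a name. Both photoreceptor precursor markers were raised in it, with sums of 685 and 266 CPM, and 2 of 4 progenitor markers, with sums of 341 and 112 CPM. It was shallow, with a median of 2008 UMIs, had the highest mitochondrial share (median 4.2%), and 103 of its nuclei came from library 1, 25 from library 2 and 25 from library 3. Its leading genes *tubb5*, *hopx* and *gsna* were found in 5.88% to 7.84% of its nuclei, and *slc6a5* UMIs were held by 18.4%, 8% and 36% of its nuclei in libraries 1, 2 and 3.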

How the data were processed

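Retinas of 3 juvenile catsharks were frozen, and nuclei were processed by the authors with the 10x Genomics 3' v3.1 kit. The deposited values are raw UMI counts per gene and barcode, made by the authors with STAR 2.7.10a (STARsolo, whole genes with introns) on build sScyCan1.1. The libraries held 73310348, 50691314 and 71366924 UMIs. Replicates are libraries of separate animals (n = 3).

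Nuclei were kept within the study's limits on UMIs and features of each library and under 10% mitochondrial UMIs. The study also assessed doublets and removed clusters made mostly of cells of a single sample. Neither step was repeated for the main set, which holds more nuclei than the study's final atlas. Doublets were treated only in an alternative that left out the highest 4% of Scrublet scores. Raw UMIs were summed per library and gate and tested with edgeR 4.0.16 (quasi-likelihood test, TMM, low-count filter, library as a block) in R 4.3.3, with Benjamini-Hochberg adjustment over all genes tested, separately in 3 comparisons. A gene was called at an adjusted p under 0.05, with a log2 fold change of at least 1 except in the *slc6a5* split. DESeq2 1.42.0 was an alternative. The quasi-likelihood test prints no SE. Each SE given is the size of the log2 fold change divided by the square root of the test's F statistic. The gates of a library come from 1 animal and so are paired. The deviations of paired sums from their group means correlated at 0.414, 0.496 and 0.466 in the *slc6a5* split, at 0.799, 0.569 and 0.667 against GABAergic nuclei and at 0.829, 0.833 and 0.783 against all others. Groups came from Leiden clustering at a resolution of 0.5 in scanpy 1.11.5 (2000 variable genes, 20 components with library means removed, 30 neighbours), without the genes of the rule.

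The text names genes of the rule, of the marker lists and of the gene lists, the 10 with the largest change in each direction that passed, went the same way in all 3 libraries and had at least 50 CPM, and the 5 leading genes of each group with at least 100 CPM. The members and lists were chosen with earlier results of these data known. A few genes that met these rules are not reported here. Scripts were tested on simulated data. Alternatives changed each limit of the rule, the mitochondrial limit, depth, the low-count filter, the test, the block, the cluster resolution and the libraries used. Intervals are exact binomial intervals at 95% and cover counting error only.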

Additional observations from a re-analysis of the deposited data

Results flagged for a closer look

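Barcodes outside the quality limits were not used in any comparison, but some of them met the gene rule for glycinergic nuclei. Of those with 10% or more mitochondrial UMIs and within the other limits, 24 did, 14 in library 1, 4 in library 2 and 6 in library 3. Their summed level of *ptprt* was 3017, 4072 and 1720.0 CPM, against 118, 95.6 and 155 CPM in near-empty droplets. Of those above the upper limits on UMIs or features and under 10% mitochondrial UMIs, 31 did, 21 in library 1, 5 in library 2 and 5 in library 3. Their *ptprt* level was 2722, 2968 and 2053 CPM. Both sets were counted because their signal lay above that of the near-empty droplets. The barcodes were picked by the genes of the rule and the near-empty droplets were not, and *ptprt* was chosen with results known. The gap is therefore a description only, and the values of libraries 2 and 3 rest on 4 to 6 barcodes each. The part of droplets with 2 nuclei in the second set was not tested.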

How the results depend on the processing

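Of the single genes named, 1566 values under alternatives kept their direction and side of the threshold. Another 25 passed newly, 90 no longer passed and 0 changed sign. The *slc6a5* split, with few genes called, gave 182 of the unchanged values and the 25 that passed newly. Of the headline values followed under alternatives, 54 stayed the same and 29 moved. The split by *slc6a5* rested on 2 called genes. It gave 6 with the share at 0.25%, 1 with no cholinergic UMI, 7 for nuclei with 2 or more *slc6a5* UMIs, 695 with no low-count filter and 16 with DESeq2, 8 in 1 random thinning to 1000 UMIs, and 0 without nuclei of 2 or more *gad* UMIs. Leaving out 1 library gave 0 to 157, the highest without library 1. Against all other nuclei, 765 genes became 1296 with the share at 0.25%, 1320 when the other nuclei held no *slc6a9* or *slc6a5* UMI, and 484 to 1050 without 1 library. The higher genes were 49.7% of calls, and 37.8% with the share at 0.25%, 64.3% with DESeq2 and 61.1% without library 1.

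Without the replicate block, which pairs the gates of 1 library, 573 genes against GABAergic nuclei became 253, 765 against all other nuclei became 102 (97 higher, 5 lower), and 2 in the *slc6a5* split became 0.

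The glycinergic share of 6.61% was 5.36% with at least 6 UMIs, 9.16% at 0.10% and 4.00% at 0.25%, where 817 nuclei remained. The *slc6a5* share of 67.0% was 62.7% with at least 3 UMIs, 74.5% with 6, 59.6% at 0.10%, 73.8% at 0.25%, 70.0% with a mitochondrial limit of 5%, 34.9% after thinning and 82.5% in groups 2, 5 to 9 and 12 to 14 alone, an alternative chosen after seeing the data. Clustered alone, libraries 1, 2 and 3 gave 8, 5 and 9 groups in place of 14. Their agreement with the 14 groups, as an adjusted Rand index that is 1 for equal groupings, was 0.50, 0.43 and 0.57. A resolution of 0.3 gave 11 groups (index 0.74) and one of 0.8 gave 17 (0.82), so the number and limits of the groups depend on these choices. With 3 animals of 1 condition and few UMIs of *slc6a5* per nucleus, absence of a UMI shows no absence of transcript. The causes of these shifts were not tested.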
